A study of Mus musculus with 9 samples.

Results

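The retinoid metabolism genes followed here were 9 genes that take up, store, oxidise or sense vitamin A: Rdh7, Rdh16f2, Rbp2, Lrat, Dhrs3, Bco1, Aldh1a1, Crabp2 and Isx. They were chosen by name, with earlier results of these data known, and each was read from every probe set that the platform annotation gives to that gene alone. This yielded 10 probe sets, 2 for Lrat and 1 for each other gene, of 45037 probe sets other than controls and 18193 genes with a probe set of their own. The arrays were 9 Affymetrix expression arrays of mouse small intestine in 3 groups of 3. The BP group carried the same source label as the Rag1 group, Rag 1, and the further name BP, whose meaning no label gives. Rag1, after which the second group was named, encodes a recombinase that joins the segments of antibody and T cell receptor genes, and no allele is given. The B6 group was labelled as wild type. Mice of all 3 groups carried Bacteroides thetaiotaomicron, a common gut bacterium, and tissue was taken after 10 days of colonization. Each RNA sample pooled pieces 10, 11, 12 and 14 of an intestine cut into 16, so epithelium, muscle, stroma and immune cells were measured together. The labels state neither age nor sex, and they do not say whether each array was a separate mouse, so the p-values cover only the spread between these 9 samples, which may be technical.

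Vitamin A reaches the gut wall as retinyl esters or as carotenoids. Enterocytes, the absorptive cells of the epithelium, cleave carotenoids to retinal, bind retinol, turn it into esters for export in lipid particles, and oxidise a share of it through retinal to retinoic acid. Retinoic acid binds nuclear receptors that recognise DNA elements built from the hexamer AGGTCA, and in the intestine it is known for shaping the homing of lymphocytes and the production of IgA. The series title names the effect of IgA as the question of the study.

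The upstream sequences of 4 of the genes are shown because each holds the hexamer AGGTCA on one strand or the other. They are the 250 bases before the transcription start, from RefSeq on GRCm38.p6, written 5′ to 3′ along the strand of the gene, with the hexamer in capitals (TGACCT is the hexamer on the opposite strand).
Rdh7, minus strand, chr10:127889248-127889497: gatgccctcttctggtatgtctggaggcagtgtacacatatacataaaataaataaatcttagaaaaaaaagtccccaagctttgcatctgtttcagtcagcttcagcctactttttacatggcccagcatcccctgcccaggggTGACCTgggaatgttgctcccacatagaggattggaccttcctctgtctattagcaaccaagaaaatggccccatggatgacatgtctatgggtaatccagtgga
Rdh16f2, plus strand, chr10:127866226-127866475: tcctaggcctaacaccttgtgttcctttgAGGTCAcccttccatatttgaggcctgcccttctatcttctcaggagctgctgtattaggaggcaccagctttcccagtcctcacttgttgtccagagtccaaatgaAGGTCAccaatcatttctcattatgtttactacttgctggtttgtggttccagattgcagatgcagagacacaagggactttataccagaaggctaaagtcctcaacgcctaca
Rbp2, plus strand, chr9:98490287-98490536: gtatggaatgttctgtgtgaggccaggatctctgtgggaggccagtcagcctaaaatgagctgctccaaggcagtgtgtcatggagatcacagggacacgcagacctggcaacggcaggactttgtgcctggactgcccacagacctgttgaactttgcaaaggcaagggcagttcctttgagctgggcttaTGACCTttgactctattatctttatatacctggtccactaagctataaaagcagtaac
Bco1, plus strand, chr8:117095615-117095864: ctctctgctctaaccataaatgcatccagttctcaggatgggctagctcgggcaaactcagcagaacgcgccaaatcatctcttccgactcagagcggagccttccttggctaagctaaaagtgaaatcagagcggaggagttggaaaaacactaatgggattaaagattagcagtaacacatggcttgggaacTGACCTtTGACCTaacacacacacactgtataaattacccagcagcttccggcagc

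Upstream windows were matched for 8 of the 9 genes, in 12 windows, since some genes have more than 1 start; the gene without one was Crabp2. The hexamer AGGTCA, searched on both strands, was in 4 of these 12 windows (33.3%), 1 each of 4 genes, and in 14.0% of 32851 windows of the same length across all genes. In Rdh7 the first base of the site lay 105 bases before the start, and a window at another start of this gene held none. Rdh16f2 held the hexamer at 221 and 114 bases before its start, both in the direction of the gene. Rbp2 held it once, at 58 bases, and Bco1 at 56 and 49 bases. The pair in Bco1 is separated by 1 base and forms the direct repeat AGGTCANAGGTCA, which overlaps both hexamers and was found in 0.033% of all windows and in no other member. The more widely spaced repeat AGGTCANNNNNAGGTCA was in 0.009% of all windows and in 0 windows of these genes. These matches describe letters in the windows shown.

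Rdh7 was the 1 gene of the set called in both comparisons that involve the Rag1 samples. Of all 27022 probe sets tested, 15 were called higher in BP than in Rag1 and lower in Rag1 than in B6 samples. Another 16 were called in both with the reverse signs. Rdh7 was 2.88-fold higher in BP than in Rag1 samples and 2.60-fold lower in Rag1 than in B6 samples. For Rdh7, BP and B6 samples did not differ by the test. Rdh16f2, its relative nearby on chromosome 10, was also higher in BP than in Rag1 samples, by 2.03 on the log2 scale, a size that ran from 1.18 to 2.77 with the constant added before the logarithm because its Rag1 signals were below the array medians. The other 7 genes, which cover carotenoid cleavage, retinol binding, esterification, the return of retinal to retinol, retinoic acid synthesis and retinoic acid binding, gave no call in any of the 3 comparisons, and 6 of them were tested. Calls were made with limma at a Benjamini-Hochberg adjusted p under 0.05 over 27022 probe sets bright enough to test, and 8 of the 9 genes were among these. Crabp2 and the dimmer Lrat probe set were below the minimum brightness, a mean of 5.30 on the log2 scale (an intensity of 23.5).

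Between BP and Rag1 samples, 2 of the 8 tested genes were called, both higher, where 3.80% of all tested probe sets were called in either direction (20.0% at an unadjusted p under 0.05, against 3 of the 8 genes). Over all probe sets 298 were higher and 729 lower in BP, and centring each array on its median in place of quantile normalization gave 158 higher and 1054 lower. The 8 genes had a median log2 difference of 0.30, against -0.045 for all tested probe sets, and 7 of the 8 differences were positive. Between Rag1 and B6 samples 1 of 8 was called, lower in Rag1, where 0.329% of all probe sets were called (5.56% at an unadjusted p under 0.05, against 3 of the 8 genes). The median difference of the 8 genes was -0.46 there, against 0.010 for all, and 6 of 8 were negative. Both comparisons use the same Rag1 arrays, so their opposite signs are not independent of each other. Since the genes were chosen with earlier results of these data known, these counts and medians are no evidence about retinoid genes as a set. Between BP and B6 samples 0 of 8 were called by limma, 2 had an unadjusted p under 0.05 (Rdh16f2 and Dhrs3), and the share of all probe sets called was 0.633% (14.6% at an unadjusted p under 0.05).

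**Figure D1:**
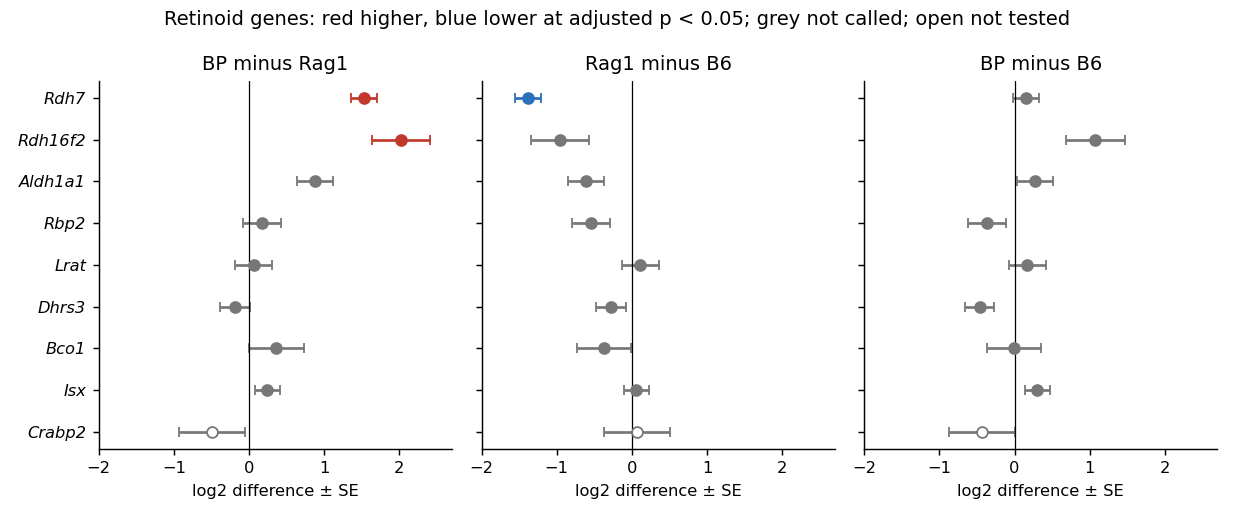
Log2 differences of the 9 retinoid genes with their standard errors in the 3 comparisons, from the normalized log2(intensity + 16) scale with 3 arrays a group; open points were too dim for the test. Rdh7 stands at 1.53 for BP minus Rag1 and at -1.38 for Rag1 minus B6, and Rdh16f2 at 2.03 for BP minus Rag1.

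The arrays differed in ways that bear on these values. The beta-actin control is read near its 3' and its 5' end, and the ratio of these signals is higher when RNA is shortened. It was 14.2, 2.43 and 20.2 on BP replicates 1 to 3, between 1.53 and 1.77 in Rag1, and 3.25, 1.76 and 4.17 for B6 replicates 1 to 3. Replicates of BP were the most spread, with a median log2 SD over probe sets of 0.44, against 0.21 in Rag1 and 0.23 in B6. In the limma fit all groups shared a single spread per probe set. Each SE, interval and p-value given here therefore assumes equal spread, which these SDs do not show. Signal for Xist, the RNA of the inactive X chromosome, was 36.0, 624 and 1735 on the BP arrays, 24.0, 24.1 and 5.84 on the Rag1 arrays and 1086, 1329 and 1539 on the B6 arrays. Signal for the Y-linked gene Eif2s3y was 17.0, 3.16 and 3.34 on the BP arrays, 109, 44.9 and 80.5 on the Rag1 arrays and 1.40, 3.95 and 7.22 on the B6 arrays. In Xist, BP replicate 1 (36.0, near its array median of 30.2) was close to the Rag1 arrays and far below BP replicates 2 and 3. Even so, every BP and every B6 array was above every Rag1 array in Xist and below every one in Eif2s3y (BP minus Rag1 -1.87 on the log2 scale with the brightness filter dropped, adjusted p = 0.0188). Group and these sex-linked signals therefore cannot be told apart in either comparison with Rag1, though for Xist the gap at BP replicate 1 was small. Of 3 sex-linked genes bright enough to test, Xist included, 0 were called in BP minus Rag1.

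Rdh7 encodes a short-chain dehydrogenase that acts on retinol and on hydroxysteroids. Its intensities were 1142, 1824 and 1259 on the BP arrays, 552, 514 and 420.3 on the Rag1 arrays, and 1357, 1226 and 1242 on the B6 arrays. Every BP and every B6 array lay above every Rag1 array, and the BP and B6 arrays overlapped. Since whole tissue was measured, fewer cells of a type and less RNA per cell cannot be told apart, here and for the genes that follow. The share of all tested probe sets whose groups did not overlap, in either direction, was 23.6% for BP and Rag1, 17.7% for Rag1 and B6 and 18.6% for BP and B6. On the log2 scale the difference of BP minus Rag1 was 1.53 ± 0.18 (SE, n = 3 each; 95% interval 1.14 to 1.91, limma adjusted p = 0.00441). Rag1 minus B6 was -1.38 ± 0.18 (interval -1.76 to -0.99, limma adjusted p = 0.00512). BP minus B6 was 0.15 ± 0.18, with an interval of -0.24 to 0.53 and an adjusted p of 0.759, which leaves room for a difference of either sign.

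The order of Rdh7 levels was thus BP, B6 and Rag1, in which BP and B6 did not differ beyond their spread. Without BP replicates 1 and 3, the pair with a high actin ratio, the difference of BP minus Rag1 was 1.67 (adjusted p = 0.000278), and the remaining BP array stood alone and was assumed to vary like the other groups. With the actin ratio as a covariate it was 1.68 (adjusted p = 0.00126). Leaving out B6 replicate 1 ended the call of Rag1 minus B6, with a value of -1.33 (adjusted p = 0.0538).

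Rdh16f2 belongs to the RDH16 family of short-chain dehydrogenases. Its intensities were 89.3, 156 and 119 on the BP arrays, 21.3, 29.5 and 7.87 on the Rag1 arrays, and 62.2, 17.0 and 75.7 on the B6 arrays. The BP arrays lay above all others, the Rag1 values were each below the median intensity of their array (32.4 to 37.4), and the B6 arrays were split, with replicate 2 at the Rag1 level. BP minus Rag1 was 2.03 ± 0.39 on the log2 scale (SE, n = 3 each; 95% interval 1.18 to 2.87, limma adjusted p = 0.0220). BP minus B6 was 1.08 ± 0.39 (adjusted p = 0.222) and Rag1 minus B6 was -0.95 ± 0.39 (adjusted p = 0.798), neither of which passed the test.

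The Rdh16f2 call was less stable than that of Rdh7. It was lost with the actin ratio as a covariate (1.60, adjusted p = 0.0655), without BP replicate 3 (1.97, adjusted p = 0.0663), and without Rag1 replicate 1, 2 or 3 (2.06, 2.21 and 1.78, adjusted p = 0.0973, 0.0773 and 0.0826). Without BP replicates 1 and 3 it was kept, at 2.07 (adjusted p = 0.0183). Because the gene is dim, its size depended on the constant added before the logarithm: the difference was 2.77 with 1 added and 1.18 with 64 added, in place of 16. On the B6 arrays the signal was low where the actin ratio was 1.76 and higher where it was 3.25 and 4.17. The BP arrays showed no such order, with normalized log2 values of 6.95, 7.12 and 7.28 at ratios of 14.2, 2.43 and 20.2. On the Rag1 arrays the values were 5.18, 5.44 and 4.64 at ratios of 1.53, 1.69 and 1.77. B6 replicate 2, at 1.76, had 5.06. Over all arrays, those with ratios of 1.77 or less thus had the lowest values, and every array at 2.43 or more was higher. The cause of these differences was not tested.

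**Figure D2:**
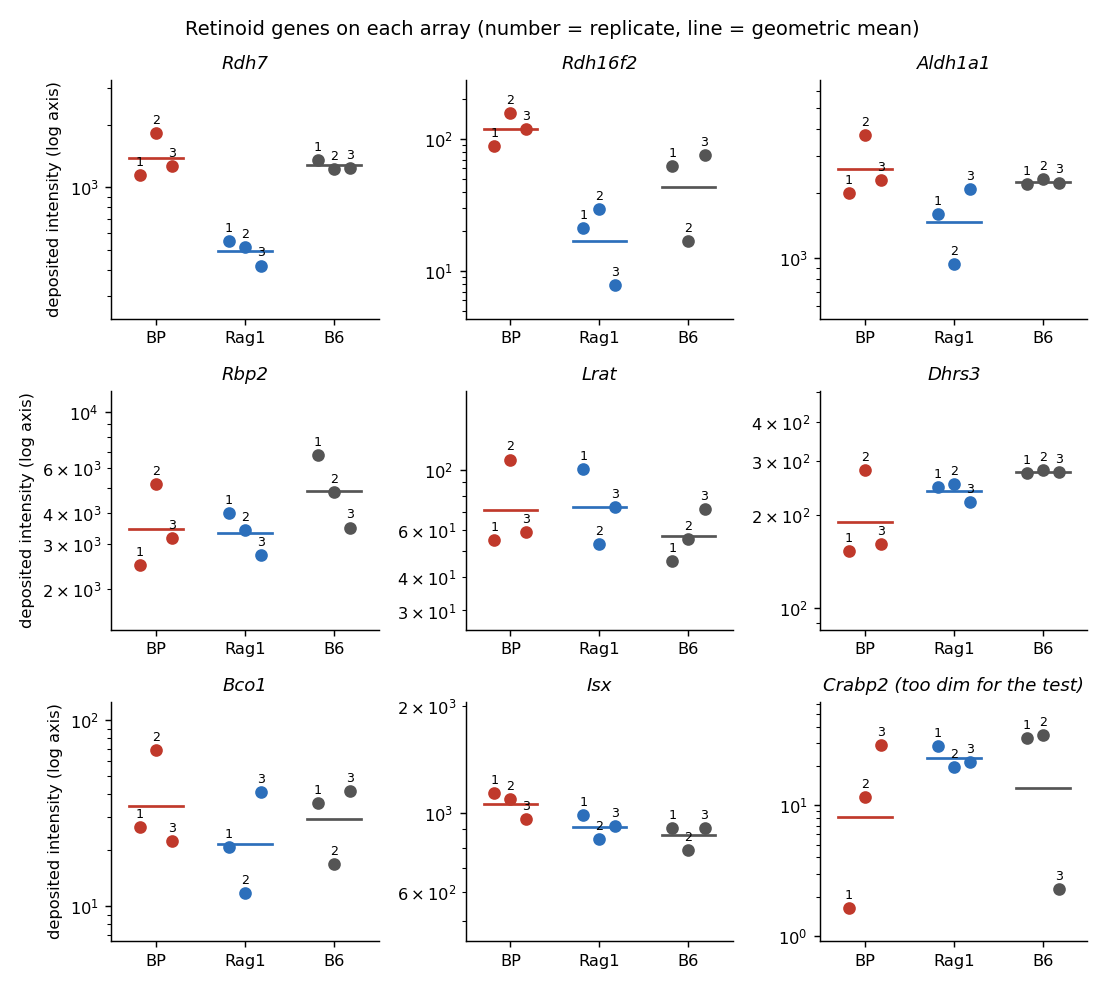
Deposited intensities (log axis) of the 9 retinoid genes on each array, with the replicate number above each point and the geometric mean of each group as a line. The 3 Rag1 arrays sit between 420.3 and 552 for Rdh7, below all BP and B6 arrays.

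Aldh1a1 encodes the retinaldehyde dehydrogenase that makes retinoic acid from retinal. Its intensities were 2012, 3748 and 2318 on the BP arrays, 1609, 944 and 2098 on the Rag1 arrays, and 2214, 2326 and 2248 on the B6 arrays. The B6 arrays were nearly level, the Rag1 arrays were spread, and BP replicate 1 lay just below Rag1 replicate 3 before normalization and just above it after. On the normalized scale all 3 Rag1 arrays lay below all BP and all B6 arrays. The difference of BP minus Rag1 was 0.88 ± 0.24 (SE, n = 3 each; 95% interval 0.36 to 1.41, limma adjusted p = 0.0640) and missed the threshold. Rag1 minus B6 was -0.61 ± 0.24 (adjusted p = 0.772) and BP minus B6 was 0.28 ± 0.24 (adjusted p = 0.654). The BP minus Rag1 difference passed with the actin ratio as a covariate (1.28, adjusted p = 0.0133) and without BP replicate 2 (0.71, adjusted p = 0.0315). In these settings the calls over all probe sets also rose from 1027 (3.80% of those tested), to 5303 without BP replicate 2. With BP replicate 2 as the only BP array the difference was 1.27.

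**Figure D3:**
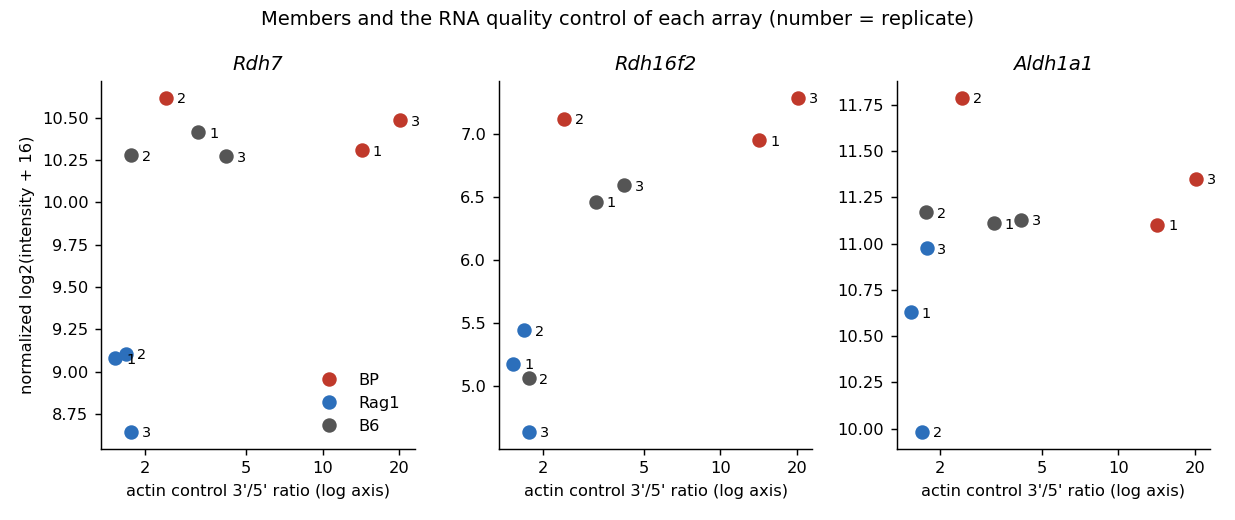
Normalized log2(intensity + 16) of Rdh7, Rdh16f2 and Aldh1a1 against the 3'/5' ratio of the beta-actin control (log axis), 1 point per array with its replicate number. The BP array with a ratio of 2.43 has Rdh7 above all 3 Rag1 arrays, whose ratios run from 1.53 to 1.77.

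Bco1 cleaves beta-carotene into retinal, and Isx is an intestinal homeobox repressor known to lower Bco1 and the carotenoid receptor gene Scarb1. Bco1 intensities were 26.6, 69.5 and 22.4 on the BP arrays, 20.9, 11.7 and 41.1 on the Rag1 arrays and 36.0, 17.0 and 41.9 on the B6 arrays. All 3 groups overlapped, near the lower limit of what was tested. BP minus Rag1 was 0.36 ± 0.36 (adjusted p = 0.650), Rag1 minus B6 was -0.37 ± 0.36 (adjusted p = 0.999) and BP minus B6 was -0.01 ± 0.36 (adjusted p = 0.995). Isx was far above the array medians and nearly level, with intensities of 1137, 1092 and 959 on the BP arrays, 986, 848 and 918 on the Rag1 arrays and 908, 789 and 910.4 on the B6 arrays. Its BP minus Rag1 difference was 0.24 ± 0.17 (95% interval -0.12 to 0.61, adjusted p = 0.462), Rag1 minus B6 was 0.06 ± 0.17 (adjusted p = 0.999) and BP minus B6 was 0.30 ± 0.17 (adjusted p = 0.436). Scarb1, from the wider pathway, had a BP minus Rag1 difference of -0.18 ± 0.25 (adjusted p = 0.752), while its other 2 probe sets gave 0.25 and 0.44 without a call.

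Rbp2 is the retinol binding protein of enterocytes. Its intensities were 2477, 5188 and 3173 on the BP arrays, 4011, 3414 and 2719.9 on the Rag1 arrays, and 6763, 4854 and 3499 on the B6 arrays. The groups overlapped in every pair, with BP replicate 2 and B6 replicate 1 above the rest of their groups. BP minus Rag1 was 0.18 ± 0.25 (adjusted p = 0.769), Rag1 minus B6 was -0.54 ± 0.25 (adjusted p = 0.911) and BP minus B6 was -0.37 ± 0.25 (adjusted p = 0.555).

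Lrat esterifies retinol for storage or export. Its brighter probe set read 54.9, 109 and 58.9 on the BP arrays, 100.9, 52.9 and 72.5 on the Rag1 arrays, and 45.8, 55.3 and 71.4 on the B6 arrays. The groups overlapped, with log2 differences of 0.06 ± 0.25 for BP minus Rag1, 0.11 for Rag1 minus B6 and 0.17 for BP minus B6 (adjusted p = 0.928, 0.999 and 0.809). The dimmer probe set, from 9.28 to 86.6 over the 9 arrays, gave 0.17, 0.25 and 0.42 when the brightness filter was dropped, with no call.

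Dhrs3 reduces retinal back to retinol and so works against the dehydrogenases above. Its intensities were 154, 279 and 161 on the BP arrays, 247, 251 and 220.3 on the Rag1 arrays, and 274, 279.6 and 276 on the B6 arrays. All 3 Rag1 arrays lay below all 3 B6 arrays, though the gap was small, and BP replicate 2 lay at the B6 level before normalization. BP minus Rag1 was -0.19 ± 0.20 (adjusted p = 0.667), Rag1 minus B6 was -0.28 ± 0.20 (adjusted p = 0.999) and BP minus B6 was -0.47 ± 0.20 (adjusted p = 0.304). Among the 19 alternative settings, a call was made for this gene in 1, without BP replicate 2, for BP minus B6, at -0.57 (adjusted p = 0.0471). In that setting the calls over all probe sets rose from 171 (0.633%) to 3046.

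Crabp2 carries retinoic acid to its nuclear receptors. Its intensities were 1.65, 11.5 and 29.1 on the BP arrays, 28.3, 19.7 and 21.4 on the Rag1 arrays, and 32.6, 34.3 and 2.27 on the B6 arrays, all near or below the array medians. With the brightness filter dropped, BP minus Rag1 was -0.49 ± 0.44 (adjusted p = 0.667), and no order of the groups could be read.

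Rdh7 and Rdh16f2 lie close together on chromosome 10 among related dehydrogenase genes, and the other 7 genes lie on chromosomes 3, 4, 8, 9 and 19. In the RefSeq order of this stretch, with the receptor gene Gpr182 and the DNA primase gene Prim1 at its ends, came Gpr182, Rdh1, Rdh9, Rdh16, Rdh16f2, Rdh7, Sdr9c7, Hsd17b6 and Prim1, counting the 9 genes with a probe set of their own. Of these, 7 were bright enough to test. Those called were Rdh16f2 and Rdh7 in BP minus Rag1, where 3.80% of all probe sets were called, and Rdh7 in Rag1 minus B6 (0.329%). The stretch was chosen around these members after their calls were known, so the count is no further evidence. Prim1 had a BP minus Rag1 difference of -0.51 ± 0.20 (limma adjusted p = 0.185), and its dimmer probe set gave 0.25 without a call. Rdh9 was far above the array medians and was most spread in BP, with 540.1, 1019 and 369 on the BP arrays, 689, 699 and 787 on the Rag1 arrays and 562, 549 and 535 on the B6 arrays. Its BP minus Rag1 difference was -0.22 ± 0.22 (adjusted p = 0.647), of the opposite sign to Rdh7. Rdh16 had a BP minus Rag1 difference of -0.13 ± 0.32 (adjusted p = 0.877) and a Rag1 minus B6 difference of 0.71 ± 0.32 (adjusted p = 0.878).

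Hsd17b6, a hydroxysteroid dehydrogenase further along, differed by 0.06 ± 0.35 for BP minus Rag1 (adjusted p = 0.946). Rdh1 was too dim for the test, at 28.7, 30.2 and 18.5 on the BP arrays, 9.16, 1.24 and 6.26 on the Rag1 arrays and 6.44, 8.18 and 13.9 on the B6 arrays. The BP arrays lay above all others for this gene, and with the filter dropped BP minus Rag1 was 0.89 ± 0.28 (adjusted p = 0.134). Members of this family are similar in sequence, and whether signal from one gene reached the probes of another was not tested.

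**Figure D4:**
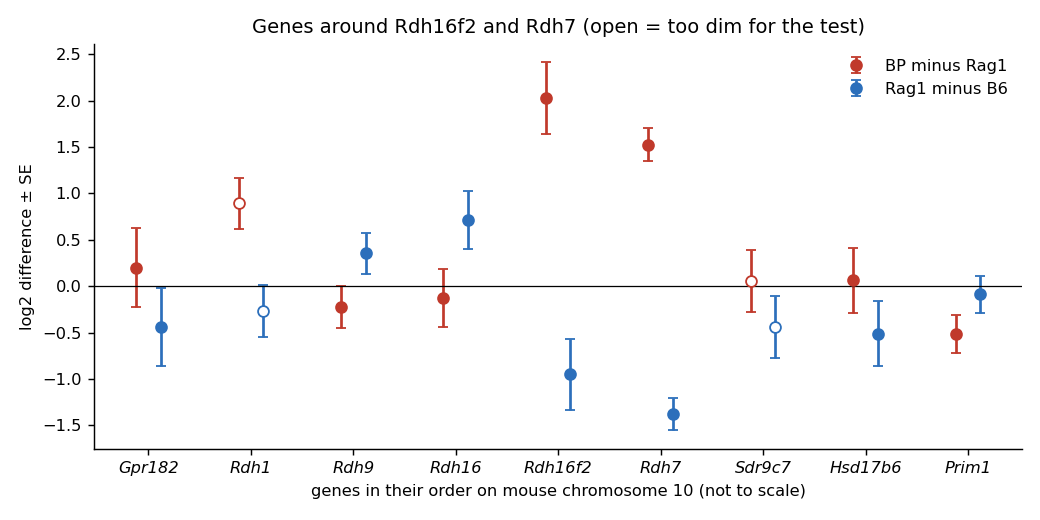
Log2 differences with their standard errors for the 9 genes around Rdh16f2 and Rdh7, in their order along chromosome 10 and not to scale, for BP minus Rag1 and Rag1 minus B6; open points were too dim for the test. Rdh7 (1.53 and -1.38) and Rdh16f2 (2.03 and -0.95) stand apart from Rdh9 (-0.22 and 0.35) and Rdh16 (-0.13 and 0.71).

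The rest of the pathway was read from a list of 50 other retinoid genes, of which 44 had a probe set of their own and 36 were tested. In BP minus Rag1, 2 of the 36 were called, both higher, with 14 positive and 22 negative differences and a median of -0.12. The share called was 5.56% of the list and 3.80% of all probe sets, and 7 of the 36 (19.4%) had an unadjusted p under 0.05, against 20.0% of all. Adh1, an alcohol dehydrogenase that oxidises retinol, read 2378, 3459.9 and 2644 on the BP arrays, 1320.3, 1138 and 570.4 on the Rag1 arrays, and 2587, 1471 and 2123 on the B6 arrays. Every BP array lay above every Rag1 array, by 1.62 ± 0.30 on the log2 scale (adjusted p = 0.0201). Rag1 minus B6 was -1.07 ± 0.30 and missed the threshold (adjusted p = 0.393). The Adh1 call for BP minus Rag1 was lost when only the groups compared were fitted (adjusted p = 0.0577) and without BP replicate 3, Rag1 replicate 1 or Rag1 replicate 2 (adjusted p = 0.0621, 0.0657 and 0.0708).

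Dhrs4, a reductase of the short-chain dehydrogenase family, read 875, 967 and 690.1 on the BP arrays, 553, 552 and 452 on the Rag1 arrays, and 757, 771 and 796 on the B6 arrays. Its difference of 0.74 ± 0.18 for BP minus Rag1 (adjusted p = 0.0443) lost its call in 14 of 19 alternative settings. Another Dhrs4 probe set went the other way, at -0.93 (adjusted p = 0.186), so the 2 probe sets of this gene disagreed. Among genes without a call, the retinoic acid receptor Rara had a BP minus Rag1 difference of -1.57 ± 0.45 (adjusted p = 0.0768) and the retinol transporter Stra6 one of -0.90 ± 0.27 (adjusted p = 0.0933). Both were dim in BP, below the array medians. The BP arrays read 1.74, 24.5 and 30.5 for Rara and 10.5, 18.9 and 17.1 for Stra6. Of the brightest uncalled genes, Apob and Mttp, which build the lipid particles that export retinyl esters, differed by -0.05 ± 0.31 and -0.50 ± 0.21, and the esterifying enzyme Dgat1 by -0.12 ± 0.14. The intestinal phospholipase Plb1 differed by -0.18 ± 0.18 and the aldehyde dehydrogenase Aldh1a7 by 0.44 ± 0.23. Dimmer probe sets of some of these genes read otherwise, at -0.01 for Mttp, 1.09 for Dgat1 and between -0.76 and 0.26 for Plb1, with a BP over Rag1 ratio of 2.30 for Apob, and none was called.

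Tgm2, a transglutaminase induced by retinoic acid in several cell types had 6 probe sets that disagreed. Its brightest probe set differed by -0.39 ± 0.33 for BP minus Rag1 (adjusted p = 0.567). Of the 6, 2 were called lower in BP. The brighter of these, chosen after its values were seen, read 337, 449 and 354 on the BP arrays, 982, 1144 and 944 on the Rag1 arrays, and 576, 717 and 576 on the B6 arrays. There all BP arrays lay below all Rag1 arrays, with a log2 difference of -1.33 ± 0.18 (adjusted p = 0.00902). In Rag1 minus B6 and in BP minus B6, limma called 0 of the 36 pathway genes, and 7 (19.4%) and 3 (8.33%) of them had an unadjusted p under 0.05, where all probe sets had shares of 5.56% and 14.6%.

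**Figure D5:**
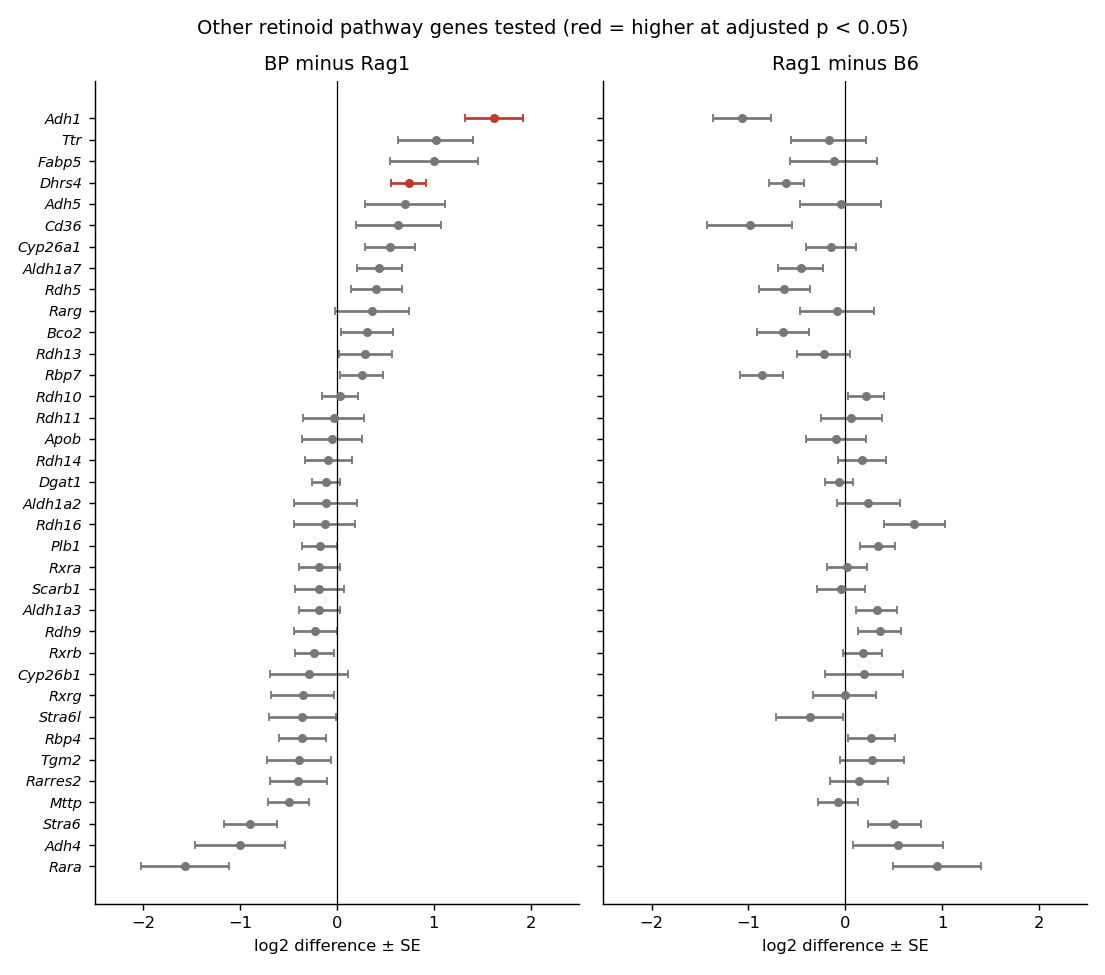
Log2 differences with standard errors for the 36 other retinoid pathway genes that were tested, sorted by BP minus Rag1, beside the same genes in Rag1 minus B6. Adh1 at 1.62 and Dhrs4 at 0.74 are the 2 that passed the test in BP minus Rag1, and none passed in Rag1 minus B6.

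The genes most like Rdh7 over the 9 arrays were Leap2, an antimicrobial and ghrelin-receptor peptide gene, Pdk4, a kinase that restrains pyruvate dehydrogenase, and Slc47a1, an organic cation exporter. Likeness was the root mean square difference of log2 values, each gene centred on its own mean, over 12801 genes. It was 0.23, 0.26 and 0.26 for these genes, against a median of 0.79 over all genes and 0.55 for Rdh16f2. Because they were picked for following Rdh7 on these same arrays, their differences describe the choice and are given without a test: BP was 2.36-fold, 2.42-fold and 2.14-fold above Rag1, and Rag1 minus B6 was -1.02, -1.13 and -0.93 on the log2 scale.

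For Rdh16f2 the most alike were Sox3, a transcription factor gene, Adh1 and Cyp2d10, a cytochrome P450, at 0.36, 0.38 and 0.40 against a median of 1.00 over all genes. Picked in the same way, Sox3 had a BP minus Rag1 difference of 1.54 and Cyp2d10 one of 1.49. A dimmer Sox3 probe set, too dim for the test, had a difference of -0.56 with the filter dropped.

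Enterocyte markers were far above the array medians on all arrays, at 1443 or more: the summed intensity of 12 of 13 listed genes was 68158 to 78556 in BP, 68054 to 79794 in Rag1 and 80182 to 81145 in B6. Of these 12 genes 1 was called between BP and Rag1 (8.33%, against 3.80% of all probe sets). It was Epcam, lower in BP with a log2 difference of -0.47 (limma adjusted p = 0.0389), while a dimmer Epcam probe set gave -0.14 without a call. Krt20 had a difference of -0.38 ± 0.10 and missed the threshold (adjusted p = 0.0591). Of the 12 differences 6 were positive and 6 negative. Markers of proximal enterocytes (6 of 6 listed) summed to 16632 to 19834 in BP, 7709 to 18976 in Rag1 and 19788 to 21080 in B6, and markers of distal enterocytes (6 of 6) to 15033 to 17112, 9266 to 21918 and 12007 to 14304 in the same groups. These are sums of deposited intensities, so the brightest genes weigh most. In BP minus Rag1, 0 of 6 genes were called in each list, where 3.80% of all probe sets were called. Differences went both ways, with 3 positive and 3 negative in the proximal list and 4 and 2 in the distal list. Rag1 replicate 3 had the lowest proximal sum and the highest distal sum of the 9 arrays, and also the lowest Rdh7, Rdh16f2 and Adh1. Without it the Rdh7 difference of BP minus Rag1 was 1.38 (adjusted p = 0.0249) and that of Rag1 minus B6 was -1.23 (adjusted p = 0.0330).

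Smooth muscle markers (7 of 7) summed to 8502 to 14060 in BP, 10184 to 12976 in Rag1 and 10097 to 11669 in B6, and 2 of them were called lower in BP than in Rag1, Myh11 with a log2 difference of -1.51 (adjusted p = 0.0134) and Des with -0.69 (adjusted p = 0.0485), where 3.80% of all probe sets were called. The others were not called: Acta2 was 0.35 ± 0.13 (adjusted p = 0.166) and Cnn1 0.28 ± 0.24, and Actg2, Tagln and Smtn lay between -0.32 and -0.07. A dimmer probe set of Myh11 gave 0.24 and 1 of Des 0.45 with the brightness filter dropped, neither called. Stroma markers (7 of 7) summed to 2608 to 5878 in BP, 2846 to 4516 in Rag1 and 2910 to 3307 in B6. Those of mononuclear phagocytes (7 of 7) summed to 6071 to 6352, 6781 to 7868 and 4669 to 7328 in the same groups, and neither list had a call between BP and Rag1. The deposited values have a lowest value of 1, so no marker could be listed at 0. The lowest marker intensity was 8.48. The part of these cell types in the retinoid gene values was not tested.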

How the data were processed

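RNA from 9 tissue pools was measured on Affymetrix arrays, with 20 µg of total RNA per labelling, per the labels' protocols. The values deposited were intensities on a linear scale (1 to 21694), and the software and scaling behind them are not given in the sources used here. Intensities were turned into log2(value + 16) and quantile-normalized, 64 control probe sets were left out, and the lowest 40% by mean were left out of the tests, which kept 27022 of 45037. Group means of all 9 arrays were fitted in R 4.3.3 by limma (version 3.58.1; tables were read by data.table, version 1.17.8), with intensity-trended empirical Bayes moderation, 6 residual degrees of freedom, two-sided tests and Benjamini-Hochberg adjustment at 0.05. Because 16 was added, log2 differences of dim genes are too small. The fit was tested on simulated data with the same spread in every group, unlike the arrays here, where BP was the most spread.

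In the platform annotation 34945 probe sets had 1 symbol, 932 several and 9160 none. A gene was counted by its brightest single-symbol probe set. The genes named were the members, pathway genes that were called or the 6 brightest that were not, and the 3 genes most like each member whose group means spanned over 1 on the log2 scale; Rara, Stra6, Scarb1 and the neighbours on chromosome 10 were added after their values were seen. Members and lists were chosen with earlier results of these data known. Sequences came from RefSeq tables on GRCm38.p6. The number of arrays limits the precision. Alternatives were other scalings, pseudocounts and filters, a replicate block, the actin ratio, fewer groups and leaving out arrays.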

Additional observations from a re-analysis of the deposited data

How the results depend on the processing

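Rdh7 was called higher in BP than in Rag1 samples in all 19 alternatives (1.38 to 1.68) and lower in Rag1 than in B6 samples in 18 of 19 (-1.47 to -1.23). Rdh16f2 kept its sign in all 19 for BP minus Rag1 and its call in 14. Leaving out 1 array at a time, the retinoid genes called numbered 1 to 3 for BP minus Rag1, 0 to 1 for Rag1 minus B6 and 0 to 1 for BP minus B6. Over all probe sets the calls ranged from 18 to 5303, 37 to 354 and 56 to 3046 in these comparisons. The 5303 and 3046 calls came without BP replicate 2, and the 18 without Rag1 replicate 1. With the actin ratio as a covariate there were 4191, 294 and 3488 calls, without BP replicates 1 and 3 there were 5978, 338 and 5700, and with only the groups compared there were 183, 338 and 51. BP minus B6 gave 499 calls with median centring and 108 with values as deposited, and for BP minus Rag1 the deposited values gave 130 higher and 641 lower. The cause of these shifts was not tested. Values as deposited moved the median of Rag1 minus B6 over all probe sets to 0.12, against 0.010.

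Replicate numbers did not pair the arrays: of 9 same-numbered pairs 1 had a correlation of deviations over 0.1 (-0.19 to 0.23), and 2 of 9 arrays correlated best with their own number. With a replicate block the calls were 799, 74 and 142, of which 2, 1 and 0 were retinoid genes.

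Signs that turned all belonged to differences that were not called. Leaving out 1 array at a time, Lrat ranged from -0.11 to 0.21 and Rbp2 from -0.040 to 0.39 for BP minus Rag1, Lrat from -0.042 to 0.28 and Isx from -0.0059 to 0.098 for Rag1 minus B6, and Bco1 from -0.29 to 0.16 for BP minus B6. With median centring Lrat was -0.056 for BP minus Rag1, Isx -0.049 for Rag1 minus B6, and Rdh7 -0.034 and Bco1 0.016 for BP minus B6. With values as deposited Lrat was -0.033 for BP minus Rag1 and Bco1 0.16 for BP minus B6. With 1 added before the logarithm Bco1 was 0.0090 for BP minus B6. With the actin ratio as a covariate Dhrs3 was 0.024 and Isx -0.038 for BP minus Rag1, and Bco1 0.15 for BP minus B6. Without BP replicates 1 and 3 Dhrs3 was 0.014 for BP minus Rag1, and Bco1 0.43 and Rbp2 0.059 for BP minus B6. Bco1 was too dim to be tested with the lowest 60% left out. The alternatives for Adh1 and Dhrs4 were chosen after seeing the data.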
